A study of Mus musculus with 12 samples.

Results

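Livers of tumour mice at day 21 were compared with livers of tumour mice at day 4, to follow the hepatocyte transcriptome as an extrahepatic tumour grew. The tumour mice were Balb/c females, 8 weeks old, whose orthotopic tumours came from injected 4T1 cells, a breast carcinoma line of the same mouse strain. Mice of the same sex, strain and age that had received PBS were taken at the same days. Each of the 4 groups (tumour day 21, tumour day 4, PBS day 21 and PBS day 4) held 3 mice. The livers were perfused and dissociated, and polyA RNA of the hepatocytes was sequenced, 1 library a mouse. The labels give no sort that would remove other liver cells. The comparison covered 12791 of the 15910 genes in the table, those whose normalized count averaged 10 or more across the 6 tumour libraries. At that limit Cachd1 (mean 10.005) and Gm5560 (10.0083) were inside, and Gm45083 (9.995) and Greb1l (9.9933) were outside.

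The liver answers inflammation with the acute-phase response, in which interleukin 6 and related cytokines bind receptors that share the subunit gp130, activate STAT3 and raise the secretion of plasma proteins such as serum amyloid A. In the same response hepatocytes are known to lower many of their metabolic genes, among them the cytochromes P450. HNF4A, named in the title of the study, is a nuclear receptor that maintains the hepatocyte's metabolic programme. 4T1 tumours are known for a marked expansion of granulocytes in the blood and organs of the host.

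Recovered depth was 9375095 to 19896545 reads a library at tumour day 21, 13421218 to 16669511 at tumour day 4 and 14110532 to 21809166 in PBS mice. One tumour day 21 library, replicate 7, differed from all others. Its Pearson correlations with the other 11 had a median of 0.828, while those of replicates 8b and 9a had medians of 0.927 and 0.938 and those of the rest 0.962 to 0.974. The 12 hepatocyte markers, albumin among them, took 11.4% to 13.4% of the reads at tumour day 21, 14.7% to 17.1% at tumour day 4 and 14.0% to 18.1% in PBS mice. The libraries thus carried the markers of the labelled cell type. Of these 12 markers, 0 passed in limma (4 at an unadjusted p under 0.05, 0 by edgeR and 1 by DESeq2), with a list median of -0.32. In bulk libraries, fewer cells of a type and less RNA per cell cannot be told apart.

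Between tumour day 21 and tumour day 4, 1463 genes were called higher (11.4% of those tested) and 608 lower (4.75%), by limma on log2(normalized count + 1) at a Benjamini-Hochberg adjusted p under 0.05. The counts of called members in each gene list below stand beside these shares of all genes. The median log2 fold change of all tested genes was 0.01. The groups of 3 did not overlap in 2372 genes with higher values at tumour day 21 (18.5%) and 1915 with lower ones (15%), together 33.5%. The rises were large and the falls were small. The genes called higher had a median log2 fold change of 2.49, and those called lower a median of -0.72. Of the genes called higher, 569 had a mean under 10 at tumour day 4, so they were tested only because they were high at day 21. Among the 3497 genes with a mean of at least 500 in both tumour groups 51 were called higher (1.46%) and 351 lower (10.04%). Without replicate 7 these became 29 and 86, and under a scaling of the libraries to their hepatocyte markers 121 and 85, so that the balance between higher and lower calls depended on the scaling. Replicate 7 had the highest value of the 3 mice in 91.5% of the genes called higher and the lowest in 84.0% of those called lower. Without it 676 genes were called higher and 146 lower, of which 666 and 146 were among the calls with it. Without tumour day 4 replicate 1 the counts were 958 and 275, and without tumour day 4 replicate 3 they were 729 and 231. Over all genes, that scaling shifted the median of all genes to 0.30 and gave 1623 higher and 134 lower calls, so that 92.4% of calls were higher, against 70.6% as reported.

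In PBS mice 0 of 12791 genes passed between day 21 and day 4 in either direction (0%), with 508 genes at an unadjusted p under 0.05. The 2 comparisons share no library, but 1 fit over all 12 libraries gave the spread for both, so they are not independent. The 6 tumour libraries fitted alone gave 525 higher and 152 lower calls, and the 6 PBS libraries alone gave 0. For PBS mice edgeR on the recovered reads called 0, and DESeq2 called 0 higher and 5 lower. The PBS groups did not overlap in 5.42% of genes with higher and 4.48% with lower values at day 21, together 9.9%. Genes called higher in tumour mice had a median log2 fold change of 0.32 in PBS mice, where 72.2% of them were above 0, against 48.4% of all tested genes. Genes called lower in tumour mice had a median of -0.15 in PBS mice, and 80.4% of them were below 0 there, against 51.4% of all tested genes. The direct test of the difference between the time effects (tumour minus PBS) called 104 genes higher (0.813%) and 6 lower (0.0469%).

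**Figure D1:**
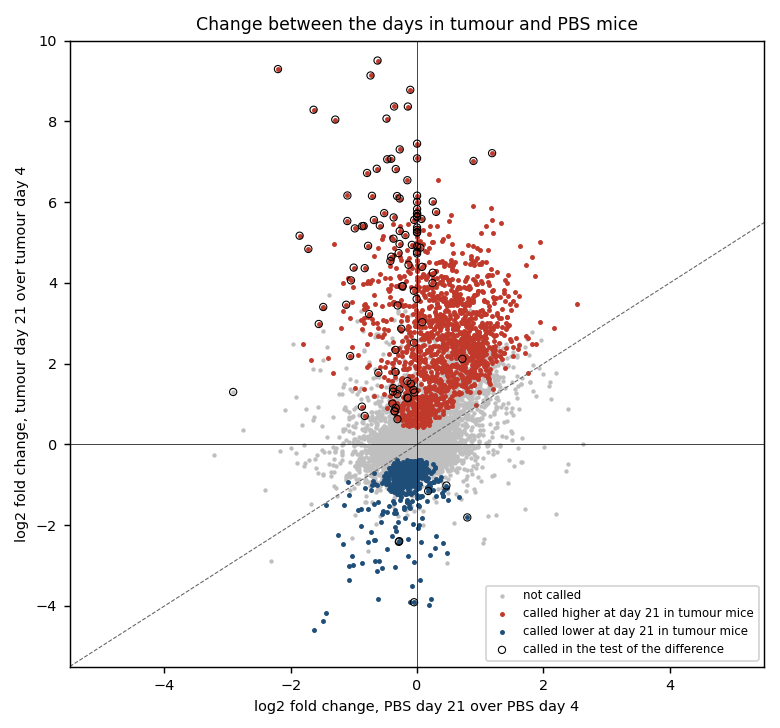
Each point is 1 of the 12791 tested genes, with its log2 fold change of tumour day 21 over tumour day 4 on the vertical axis and of PBS day 21 over PBS day 4 on the horizontal axis; colours mark the 1463 genes called higher and the 608 called lower in tumour mice, circles the genes called in the test of the difference, and the dashed line equal change. Called rises spread up to 9.51 on the tumour axis and called falls down to -4.60, while no gene was called in PBS mice.

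**Figure D2:**
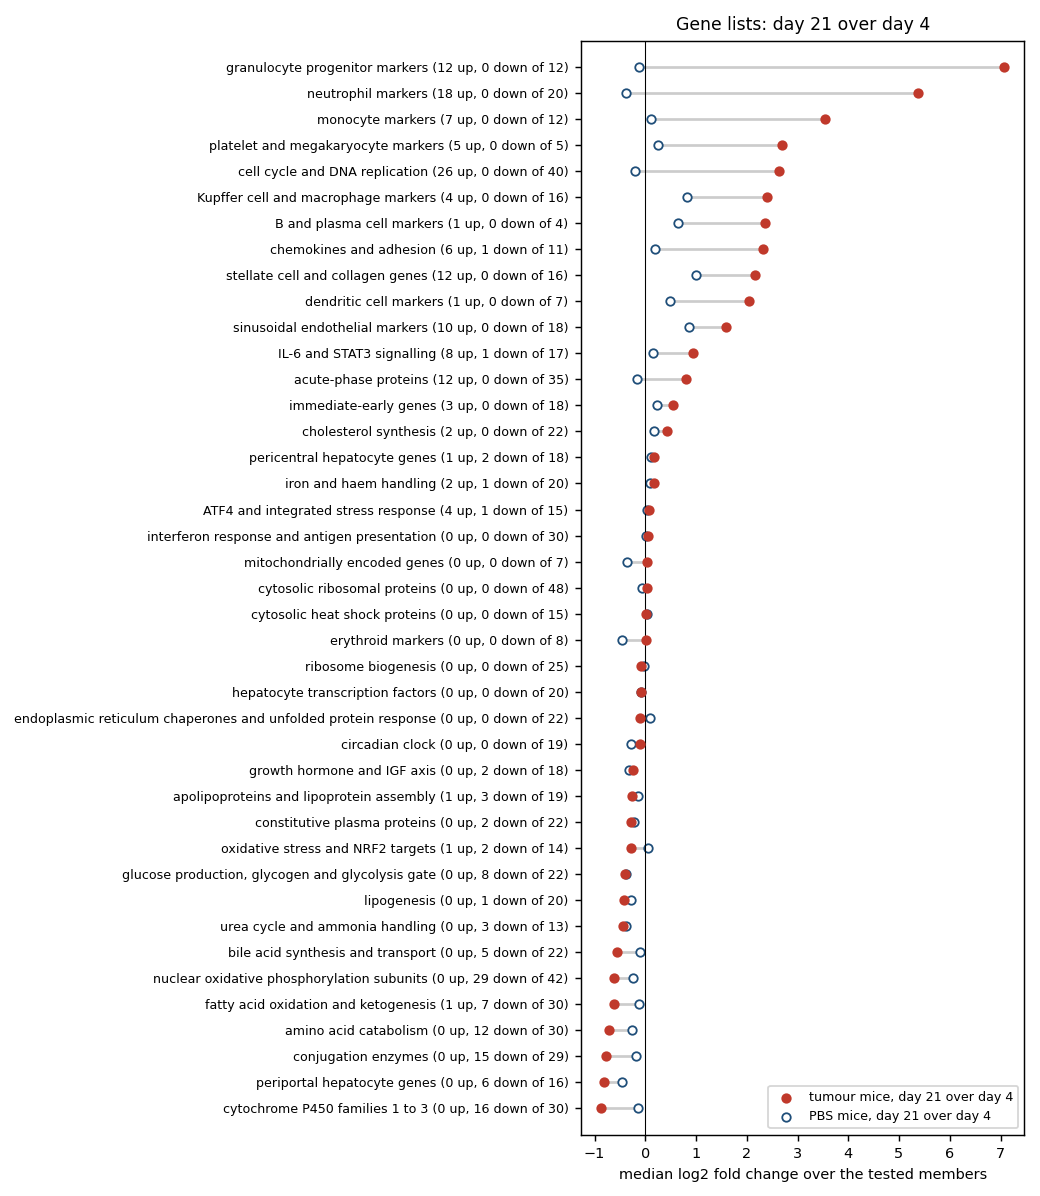
The median log2 fold change of the gene lists is shown for tumour mice (filled) and PBS mice (open). The number of members called higher (up) and lower (down) in tumour mice stands beside each name. Hepatocyte, T and NK cell, cholangiocyte and mammary carcinoma markers are left out. Granulocyte progenitor and neutrophil markers stand highest, with medians of 7.07 and 5.37, and cytochromes P450 lowest, with -0.87.

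Secreted acute-phase proteins rose at tumour day 21, led by serum amyloid A, orosomucoid 2 and lipocalin 2. Of 35 tested members of the list 12 were called higher and 0 lower, with a list median of 0.79, and the count ran from 4 to 13 when each library was left out, the lowest being without tumour day 4 replicate 3. Scaling to the hepatocyte markers gave 23. Normalized counts per mouse are given below in the order of replicates 7, 8b and 9a at tumour day 21 and replicates 1, 2 and 3 at tumour day 4. Saa2, which encodes serum amyloid A2 (GRCm38 chromosome 7, 46751790 to 46754313, plus strand), had 8856, 42654 and 17445 at tumour day 21, against 540.1, 1525 and 241 at tumour day 4. All 3 mice at tumour day 21 lay above all 3 at tumour day 4 (limma log2 fold change 5.0 with SE 1.12 and adjusted p = 0.0147). Saa1, its close copy, had 10647, 39130.4 and 17629.5 at tumour day 21, against 1363, 2841 and 649 at tumour day 4 (limma log2 fold change 3.84 with SE 1.01 and adjusted p = 0.0289). Counting can misassign or drop reads of close copies, so the level of each alone is uncertain. Orm2, an orosomucoid that carries small molecules in plasma, had 5509, 16779 and 5452 at tumour day 21, against 1114, 1289 and 688 at tumour day 4 (limma log2 fold change 3.0 with SE 0.62 and adjusted p = 0.0106). Lcn2, lipocalin 2, which binds bacterial siderophores and is made by neutrophils as well, had 12692, 25195 and 8611 at tumour day 21, against 1999.9, 3585 and 968 at tumour day 4 (limma log2 fold change 2.88 with SE 0.68 and adjusted p = 0.018).

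Haptoglobin, which binds free haemoglobin, showed the same order at a high level. Hp had 84239, 187614 and 88347 at tumour day 21, against 48743, 53450.0 and 38615 at tumour day 4, with a log2 fold change of 1.26 (limma adjusted p = 0.0109). Steap4, a metalloreductase, had 5905, 10374 and 4541 at tumour day 21, against 2276, 3097 and 1875 at tumour day 4, with a log2 fold change of 1.46 (limma adjusted p = 0.0071). A2m, an acute-phase protein in the rat, had 29, 81 and 11 recovered reads in replicates 7, 8b and 9a at tumour day 21, against 1 read over tumour day 4, a depth-adjusted ratio of 115 (95% counting interval 20.2 to 4570). Without replicate 8b the ratio was 47.6 (8.06 to 1930). Of the 12 genes called, 11 were highest in replicate 8b and 1 in replicate 7. The call of Saa2 was lost without tumour day 4 replicate 3, with values of 4.37 to 5.70 over the 12 leave-outs, and that of Hp without tumour day 4 replicate 3, with values of 0.89 to 1.47 over the 12 leave-outs. The call of Lcn2 was lost in 2 leave-outs, those of tumour day 21 (7) and tumour day 4 (3), with values of 2.39 to 3.33 over the 12 leave-outs, and that of Saa1 in 5 leave-outs, those of tumour day 21 (7, 8b, 9a) and tumour day 4 (1, 3), with values of 3.30 to 4.37 over the 12 leave-outs. In PBS mice the log2 fold changes of Saa2, Saa1, Orm2, Lcn2, Hp and Steap4 were 1.94, 1.38, 0.22, -0.62, -0.16 and -0.23, and none passed. The difference between tumour and PBS mice passed for none of these 6. Members without a call included the fibrinogen chains Fga (0.67), Fgb (0.60) and Fgg (0.53), complement C3 (0.27) and Crp (-0.12), where each value is a log2 fold change.

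Interleukin 6 and its relatives signal through shared receptor chains to STAT3. Of 17 tested members of the IL-6 and STAT3 list, 8 were called higher and 1 lower, with a median of 0.94 (5 and 0 without replicate 7). Il6st, which encodes gp130, had 5344, 3384 and 3630.3 at tumour day 21, against 1685, 2063 and 1752 at tumour day 4 (limma log2 fold change 1.14 with SE 0.18 and adjusted p = 0.00262). Osmr, the oncostatin M receptor that pairs with gp130, had 279, 151 and 86.2 at tumour day 21, against 13.2, 33.1 and 18.7 at tumour day 4. Its log2 fold change was 2.87 (limma adjusted p = 0.00238). In PBS mice Osmr had 32.2, 37.1 and 37.2 at PBS day 21, against 8.05, 15.8 and 16.3 at PBS day 4, again without overlap, with a log2 fold change of 1.40 that was not called. The difference between tumour and PBS mice did not pass for Osmr (limma adjusted p = 0.323). Stat3 had 3388, 4190.2 and 3702 at tumour day 21, against 2025, 2613 and 2351 at tumour day 4, with a log2 fold change of 0.69 (limma adjusted p = 0.00861). None of the 3 overlapped between the days, and none lost its call when any 1 library was left out. Lifr, the receptor of leukaemia inhibitory factor, was the member called lower (-0.85), and its call was lost in 9 leave-outs, those of tumour day 21 (7, 8b), tumour day 4 (1, 2, 3), PBS day 21 (10a, 12b) and PBS day 4 (4, 5), with values of -1.09 to -0.66 over the 12 leave-outs. Socs3, the feedback inhibitor of this pathway, had 1552, 2449 and 721 at tumour day 21, against 575, 386 and 143 at tumour day 4 (limma log2 fold change 2.14 with SE 0.60 and adjusted p = 0.0352). The call of Socs3 was lost in 5 leave-outs, those of tumour day 21 (7, 8b), tumour day 4 (2, 3) and PBS day 21 (12b), with values of 1.57 to 2.62 over the 12 leave-outs. In PBS mice the log2 fold changes of Il6st, Stat3, Socs3 and Lifr were -0.06, -0.13, 0.54 and 0.15, and none passed. Il6ra (0.41), Jak1 (0.33) and Jak2 (0.54) were not called. Fgl2, a prothrombinase also made by macrophages, had 369.9, 63.2 and 76.3 at tumour day 21, against 2.03, 27.0 and 2.34 at tumour day 4 (limma log2 fold change 4.22 with SE 0.88 and adjusted p = 0.00918). It was highest in replicate 7, where Kupffer cell and macrophage markers took 0.262% of reads, against 0.06% and 0.121% in replicates 8b and 9a and 0.03% to 0.062% at tumour day 4; their part in the result was not tested. Lifr and Socs3 were picked after their values were seen.

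The 250 bases before the start of 5 of these genes are shown because they moved together and because STAT3 and C/EBP are textbook regulators of the acute-phase response. The sequences and starts are RefSeq's on GRCm38.p6, each on the strand of its gene. The capitals mark matches to TTGCNCAA, the C/EBP-type motif, in Saa1, Saa2 and Orm2, and to TTCNNNGAA, the STAT-type motif, in Steap4 and Socs3. Both strands were searched for both motifs, and each window held 1 match, so that none overlapped another.
Saa1 (chr7:46742981-46743230, minus strand): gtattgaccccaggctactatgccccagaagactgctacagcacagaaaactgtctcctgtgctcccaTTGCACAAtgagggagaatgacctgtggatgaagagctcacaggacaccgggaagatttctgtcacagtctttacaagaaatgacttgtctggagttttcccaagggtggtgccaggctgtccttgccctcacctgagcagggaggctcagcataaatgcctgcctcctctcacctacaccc
Saa2 (chr7:46751583-46751832, plus strand): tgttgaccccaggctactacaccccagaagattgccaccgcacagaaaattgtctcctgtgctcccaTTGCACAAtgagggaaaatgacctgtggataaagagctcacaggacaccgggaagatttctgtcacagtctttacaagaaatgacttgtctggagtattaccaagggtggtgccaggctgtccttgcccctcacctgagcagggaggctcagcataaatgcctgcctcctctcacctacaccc
Orm2 (chr4:63362199-63362448, plus strand): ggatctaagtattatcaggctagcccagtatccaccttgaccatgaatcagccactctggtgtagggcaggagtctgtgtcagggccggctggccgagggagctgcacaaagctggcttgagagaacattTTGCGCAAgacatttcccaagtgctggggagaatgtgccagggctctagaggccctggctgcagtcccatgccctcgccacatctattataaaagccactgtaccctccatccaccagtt
Steap4 (chr5:7960222-7960471, plus strand): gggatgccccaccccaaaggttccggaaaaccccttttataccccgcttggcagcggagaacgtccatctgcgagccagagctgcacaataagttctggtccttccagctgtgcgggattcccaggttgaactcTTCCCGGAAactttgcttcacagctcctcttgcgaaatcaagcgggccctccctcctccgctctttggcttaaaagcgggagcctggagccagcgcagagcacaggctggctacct
Socs3 (chr11:117969367-117969616, minus strand): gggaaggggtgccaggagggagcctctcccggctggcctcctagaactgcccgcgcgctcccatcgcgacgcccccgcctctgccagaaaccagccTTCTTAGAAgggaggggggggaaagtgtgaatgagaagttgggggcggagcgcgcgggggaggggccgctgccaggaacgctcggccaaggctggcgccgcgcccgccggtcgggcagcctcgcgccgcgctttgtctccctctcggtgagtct
The match lies at -182 to -175 from the start in Saa1, at -183 to -176 in Saa2 and at -120 to -113 in Orm2. In Steap4 it lies at -116 to -108 and in Socs3 at -154 to -146. The windows of Saa1 and Saa2 were identical at 238 of 251 aligned positions (94.8%). TTGCNCAA was present in 2.61% of all 32851 RefSeq windows of this length and TTCNNNGAA in 7.02%. These matches describe the letters only, and binding was not measured here.

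Genes of neutrophils and their precursors showed the largest rises in the comparison, from values near 0, where the fitted fold change depends on the pseudocount. Of the 20 neutrophil markers tested 18 were called higher and 0 lower, with a median log2 fold change of 5.37 in tumour mice and -0.39 in PBS mice. Of the 12 granulocyte progenitor markers all 12 were called higher, with medians of 7.07 and -0.13. These counts describe detection as well as change, since only 10 and 5 of the members had a mean of at least 10 in both tumour groups. Of those 9 and 5 were called higher, where 7.61% of the 11749 genes past this limit were called higher and 5% lower. Mpo, myeloperoxidase of azurophil granules, had 13140.1, 2446 and 2274 at tumour day 21, against 2.03, 61.4 and 0 at tumour day 4 (limma log2 fold change 9.51 with SE 1.22 and adjusted p = 0.00165). S100a8, a calcium-binding protein abundant in neutrophils, had 13558, 3041 and 2248 at tumour day 21, against 12.2, 67.5 and 2.34 at tumour day 4 (limma log2 fold change 8.29 with SE 1.02 and adjusted p = 0.00158). Elane, neutrophil elastase, had 5031, 851 and 905 at tumour day 21, against 2.03, 34.4 and 0 at tumour day 4. Every one of these values was highest in replicate 7, and among the day 4 mice replicate 2 stood above replicates 1 and 3. Ngp, Ltf, Ctsg, Cd177 and Camp, which encode other granule or surface proteins of granulocytes, had log2 fold changes of 9.30, 9.14, 8.78, 8.37 and 8.07, with limma adjusted p of 0.000632 to 0.00121. All 8 kept their calls when any 1 library was left out. Ctsg, Cd177 and Camp had means of 5.32, 2.03 and 4.89 at tumour day 4, so they were tested only because they were high at day 21. Cebpe, a transcription factor of late granulocyte maturation, had 600, 55 and 115 recovered reads in replicates 7, 8b and 9a at tumour day 21, against 0 over tumour day 4, at least 243-fold higher against a limit of 3 reads over the group. Without replicate 7 this bound was 84.7-fold. Gfi1, a repressor needed for granulocyte formation, had 416, 29 and 63 reads in these mice, against 0 over tumour day 4, at least 161-fold higher, or 45.8-fold without replicate 7. Leaving out the library with most of a gene's reads was chosen after the data were seen. The neutrophil markers together took 0.757%, 0.303% and 0.187% of the reads of replicates 7, 8b and 9a at tumour day 21, against 0.035% to 0.06% at tumour day 4 and 0.027% to 0.039% in PBS mice. Of the 18 called markers 17 were highest in replicate 7 and 1 in replicate 8b. The list summed to 5587 to 9906 normalized counts at tumour day 4, where S100a9 had 24.4, 130 and 5.85. Members other than S100a8 and S100a9 thus carried most of the share at that day. How much of the share came from neutrophils was not tested.

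Of 12 monocyte markers 7 were called higher, with a median of 3.54. This count too describes detection as well as change: 4 of the 12 had a mean of at least 10 in both tumour groups, and 1 of these was called. Itgam, an integrin chain of myeloid cells, was among the 7 called. It had 336, 78.2 and 52.7 at tumour day 21, against 1.02, 4.91 and 4.68 at tumour day 4 (limma log2 fold change 4.79 with SE 0.71 and adjusted p = 0.00208). Its mean at tumour day 4 was under 10, so it was tested only because it was high at day 21. Ccr2, the receptor that guides monocytes out of the marrow, had a log2 fold change of 4.36, and Ly6c2, a surface marker of classical monocytes, 4.00. The markers took 0.312% to 0.409% of reads at tumour day 21, against 0.168% to 0.225% at tumour day 4, and 0.231% to 0.315% in PBS mice. The list summed to 27693 to 37919 normalized counts at tumour day 4. The 4 members with a mean of at least 10 in both tumour groups thus carried nearly all of the share there. It does not measure the 7 called genes, and how much of it came from monocytes was not tested. Cx3cr1 (2.13), a receptor of patrolling monocytes, was not called. Of 18 T and NK cell markers only Nkg7, a granule protein of cytotoxic cells, was tested. It had 355, 59.9 and 71.0 at tumour day 21, against 0, 3.68 and 2.34 at tumour day 4 (limma log2 fold change 5.54 with SE 0.82 and adjusted p = 0.00208). Nkg7 too had a mean under 10 at tumour day 4 and was tested only because it was high at day 21. Of the B and plasma cell markers 1 of 4 was called higher, and of the dendritic cell markers 1 of 7, where 11.4% of all genes were.

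Among the markers of the liver's resident non-parenchymal cells the number called depended on the tool and on single libraries. Of 18 sinusoidal endothelial markers 10 were called higher (1 without replicate 7), of 16 stellate cell and collagen genes 12 (5 without), of 16 Kupffer cell and macrophage markers 4 (1 without) and of 5 platelet markers 5 (1 without). A mean of at least 10 in both tumour groups was reached by 18, 14, 15 and 3 members of these lists. Of those, 10, 10, 3 and 3 were called higher, where 7.61% of genes past this limit were. The other called members were tested only because they were high at day 21. On the recovered reads edgeR called 16, 12, 14 and 5 members of these 4 lists higher, and DESeq2 17, 13, 14 and 5. Without replicate 8b limma called 18 of the endothelial and 14 of the Kupffer cell and macrophage markers. The list medians in tumour mice were 1.58, 2.16, 2.4 and 2.70, and without replicate 7 they were 1.04, 1.85, 1.72 and 2.21. The same lists had medians of 0.86, 1.0, 0.83 and 0.25 in PBS mice. Stab2, a scavenger receptor of sinusoidal endothelium, had 1727, 811 and 760.3 at tumour day 21, against 357, 471 and 314 at tumour day 4 (limma log2 fold change 1.44 with SE 0.27 and adjusted p = 0.00557). Hgf, the hepatocyte growth factor made by stellate cells, had 752, 254 and 334 at tumour day 21, against 41.7, 97.0 and 36.3 at tumour day 4 (limma log2 fold change 2.90 with SE 0.48 and adjusted p = 0.00356). Marco, a macrophage scavenger receptor, had 181, 66.5 and 77.1 at tumour day 21, against 11.2, 13.5 and 2.34 at tumour day 4. Its mean at tumour day 4 was under 10, so it was tested only because it was high at day 21. C1qa, a complement subunit made by Kupffer cells, had 2342, 374 and 967 at tumour day 21, against 301, 265 and 71.4 at tumour day 4. The call of C1qa was lost in 7 leave-outs, those of tumour day 21 (7, 9a), tumour day 4 (2, 3) and PBS day 21 (10a, 11a, 12b), with values of 1.74 to 3.07 over the 12 leave-outs. Each of these 4 was highest in replicate 7. Endothelial markers took 0.154%, 0.033% and 0.065% of reads in replicates 7, 8b and 9a at tumour day 21, against 0.015% to 0.025% at tumour day 4, but 0.05% to 0.07% at PBS day 21 and 0.017% to 0.04% at PBS day 4. Of 8 erythroid markers tested, 0 passed in limma, edgeR or DESeq2, and 0 had an unadjusted p under 0.05. Of 13 mammary carcinoma markers 6 were in the table and 5 were tested. Ltf was called, which is also a neutrophil gene, and the epithelial keratins Krt8 and Krt18 had 0.02 and 0.06. Whether carcinoma cells were present was not tested. How much of any other result came from cells besides hepatocytes was not tested.

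**Figure D3:**
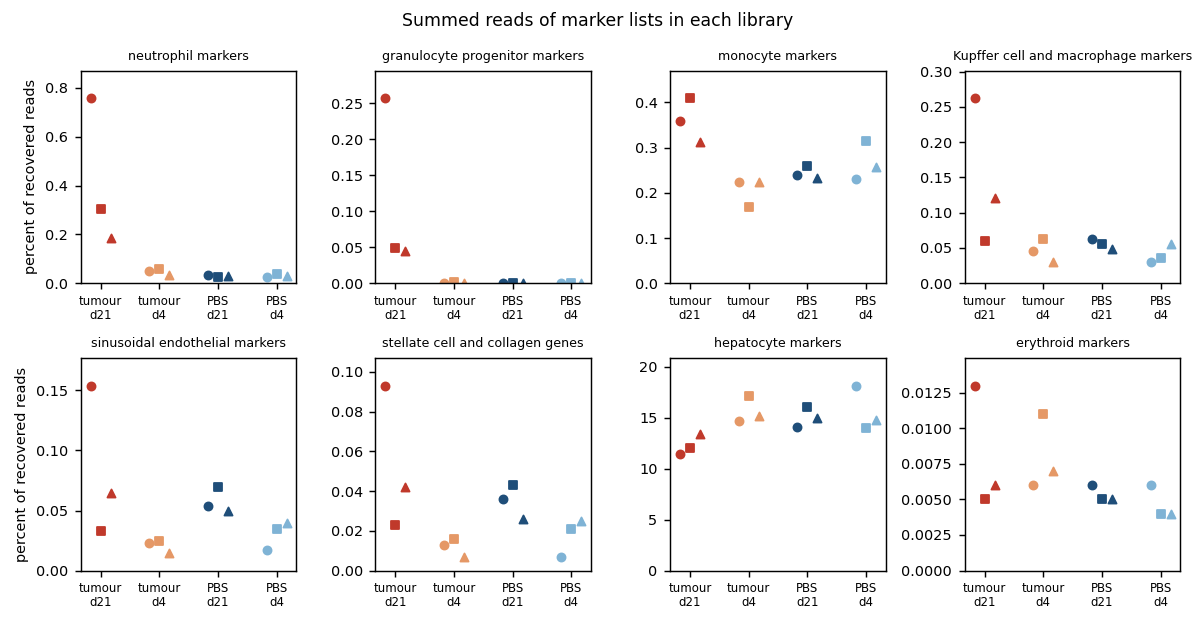
The summed recovered reads of 8 marker lists are shown as a percentage of each library's reads, 1 symbol a mouse, for tumour day 21, tumour day 4, PBS day 21 and PBS day 4. Neutrophil markers are highest in tumour day 21 replicate 7 (0.757%), and hepatocyte markers lie at 11.4% to 13.4% at tumour day 21 against 14.7% to 17.1% at tumour day 4. Each share is a sum over members of unlike level, so a few members can carry most of it.

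Genes of cell division rose with the granulocyte genes. Of 40 tested members of the cell cycle and DNA replication list 26 were called higher and 0 lower, with a median of 2.63 in tumour mice and -0.21 in PBS mice. Of the 35 members with a mean of at least 10 in both tumour groups, 22 were called. Rrm2, a subunit of ribonucleotide reductase, had 598, 101 and 138 at tumour day 21, against 9.15, 25.8 and 8.19 at tumour day 4 (limma log2 fold change 3.91 with SE 0.60 and adjusted p = 0.00224). Mcm5, a subunit of the replicative helicase, had 664, 165 and 394 at tumour day 21, against 17.3, 45.4 and 8.19 at tumour day 4 (limma log2 fold change 4.15 with SE 0.63 and adjusted p = 0.00246). Aurkb, a mitotic kinase, had 225, 28.3 and 40.5 at tumour day 21, against 2.03, 6.14 and 0 at tumour day 4. Replicate 7 was highest in 25 of the 26 called genes, and without it 10 members were called. The granulocyte progenitor markers were highest in the same library, at 0.257% of reads, against 0.049% and 0.045% in replicates 8b and 9a; their part in the cell cycle result was not tested. Ccnd1, cyclin D1, had a log2 fold change of 0.22 and Tk1, thymidine kinase, -0.29, and neither was called.

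The major urinary proteins, pheromone carriers that the mouse liver secretes, showed the deepest falls. All 13 tested Mup genes were called lower, with log2 fold changes of -4.60 to -1.46. In PBS mice the same genes ran from -1.63 to -0.35 with no call, and none was called in the test of the difference. The pseudogene Mup-ps4, not counted among them, was called lower in that test (-3.86, limma adjusted p = 0.0437). It had 0, 1.66 and 2.29 at tumour day 21, so it was tested only because it was high at day 4. Summed over the 15 Mup genes in the table, replicates 7, 8b and 9a had 2926, 4233 and 11563 normalized counts at tumour day 21, against 54435, 52426 and 28613 at tumour day 4. PBS mice had 16859 to 22524 at day 21 and 33746 to 45138 at day 4. Mup3 (GRCm38 chromosome 4, 62083476 to 62087342, minus strand) had 2765, 4024 and 10306 at tumour day 21, against 51103, 47208 and 23489 at tumour day 4 (limma log2 fold change -2.98 with SE 0.42 and adjusted p = 0.00205). It kept its call when any 1 library was left out, while 7 of the 13 genes were called without replicate 7. The Mup genes are near-identical copies, so reads can be split among them and the values of single members other than the sum are uncertain. Of the growth hormone and IGF list, which holds regulators and targets of growth hormone, 2 of 18 members were called lower, Mup3 and Mup20 (-1.64), beside 4.75% of all genes. Ghr, the growth hormone receptor (-0.32), Stat5b (-0.10) and Igf1 (-0.17) were not called.

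Many cytochromes P450 of families 1 to 3, which oxidise steroids, drugs and other foreign compounds, fell. Of 30 tested members 16 were called lower and 0 higher, with a median of -0.87 in tumour mice and -0.14 in PBS mice. Cyp2f2, a periportal enzyme that oxidises naphthalene, had 1543, 3387 and 7014 at tumour day 21, against 23877, 26541 and 18394 at tumour day 4 (limma log2 fold change -2.77 with SE 0.43 and adjusted p = 0.00256). In PBS mice it had 10469, 12849.7 and 8531 at PBS day 21, against 28405, 17303 and 19997 at PBS day 4, also without overlap, with a log2 fold change of -1.03 that was not called. The difference between tumour and PBS mice did not pass for Cyp2f2 (limma adjusted p = 0.21). Cyp2c29, a pericentral enzyme, had 7584, 7511 and 14938 at tumour day 21, against 26139, 27764 and 29041 at tumour day 4 (limma log2 fold change -1.54 with SE 0.25 and adjusted p = 0.00273). Cyp2b10, an inducible enzyme known as a target of the nuclear receptor CAR, had 87.2, 84.8 and 570.2 at tumour day 21, against 1068, 1701 and 1389.8 at tumour day 4. The groups did not overlap in any of the 3, and replicate 9a was the highest tumour day 21 mouse in each. Cyp2c29 and Cyp2f2 kept their calls when any 1 library was left out, and that of Cyp2b10 was lost without tumour day 21 replicate 7, with values of -3.97 to -2.60 over the 12 leave-outs. Without replicate 7, 8 members were called, and under hepatocyte marker scaling 11. Cyp2e1, which oxidises ethanol, had a log2 fold change of -0.02 and Cyp3a11 one of -0.60, and neither was called. Reads of close copies in the Cyp2c and Cyp4a clusters can be misassigned. Cyp17a1, the steroid 17-hydroxylase outside these families, had 93.7, 323 and 637 at tumour day 21, against 1869.7, 1762 and 4022 at tumour day 4 (limma log2 fold change -3.14 with SE 0.62 and adjusted p = 0.00924).

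Many enzymes of conjugation, which attach glutathione, glucuronic acid or sulfate to such compounds, fell likewise. Of 29 tested members 15 were called lower and 0 higher, with a median of -0.77, and 8 were called without replicate 7. Gstt1, a glutathione transferase, had 1666, 1706 and 2961 at tumour day 21, against 4839.9, 4712 and 4524 at tumour day 4 (limma log2 fold change -1.20 with SE 0.20 and adjusted p = 0.0031). Ugt2b1, a glucuronosyltransferase, had 2209.9, 2767 and 3687 at tumour day 21, against 7725, 6739.6 and 5600.3 at tumour day 4 (limma log2 fold change -1.23 with SE 0.24 and adjusted p = 0.00685). Sult2a8, a sulfotransferase outside the list, had 1787, 1217 and 3414 at tumour day 21, against 8400.2, 8621 and 8909 at tumour day 4 (limma log2 fold change -2.15 with SE 0.30 and adjusted p = 0.00194). The 3 genes had no overlap between the days and kept their calls when any 1 library was left out. Nnmt (0.18) and Gstp1 (0.07) were not called. Car3, a carbonic anhydrase of liver and fat, had 7602, 4225 and 22006 at tumour day 21, against 37128, 44328 and 54796 at tumour day 4 (limma log2 fold change -2.33 with SE 0.45 and adjusted p = 0.00689). Catalase, which breaks down hydrogen peroxide, had 21040.5, 23593 and 35088 at tumour day 21, against 51849.8, 54817 and 53668 at tumour day 4 at the Cat gene (limma log2 fold change -1.04 with SE 0.20 and adjusted p = 0.00618).

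**Figure D4:**
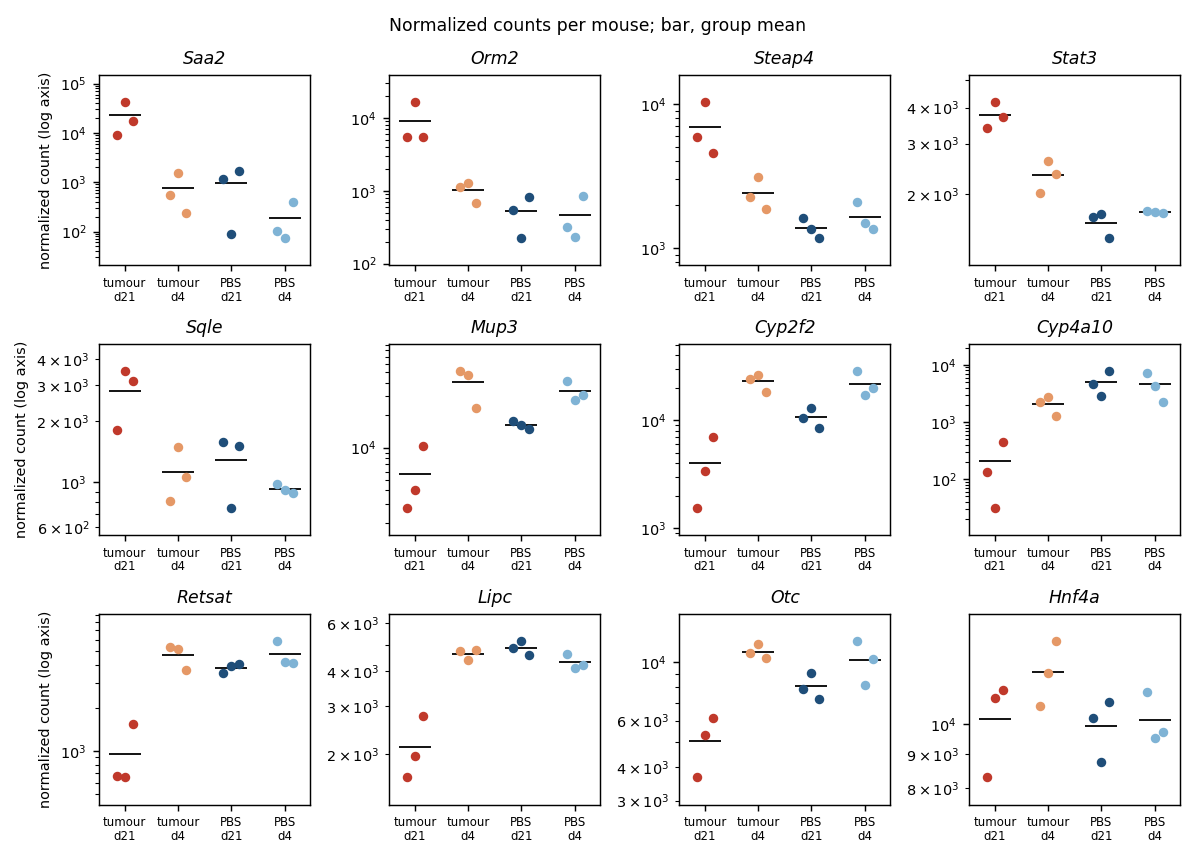
Normalized counts of 12 genes are plotted for each mouse on log axes, with the bar at the group mean, in the order tumour day 21, tumour day 4, PBS day 21 and PBS day 4. Saa2, Orm2, Steap4, Stat3 and Sqle lie above their tumour day 4 values in all 3 tumour day 21 mice, Mup3, Cyp2f2, Cyp4a10, Retsat, Lipc and Otc lie below them in all 3, and Hnf4a overlaps.

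Most nuclear-encoded subunits of the mitochondrial respiratory chain and ATP synthase fell, by a small amount. Of 42 members 29 were called lower and 0 higher, the median was -0.61, and every member lay below 0, from -0.88 to -0.28. In PBS mice the median was -0.24 and again every member lay below 0, with no call. Sdhb, the iron-sulfur subunit of succinate dehydrogenase, had 1766, 2233 and 2704 at tumour day 21, against 4310.0, 3929 and 3925 at tumour day 4 (limma log2 fold change -0.88 with SE 0.17 and adjusted p = 0.00645). Uqcrfs1, the Rieske protein of complex III, had 1608, 2044 and 2386 at tumour day 21, against 3826, 3474 and 3432 at tumour day 4 (limma log2 fold change -0.85 with SE 0.16 and adjusted p = 0.00563). Replicate 7 was lowest in each of the 29, and without it 8 were called with a median of -0.51. Scaling to the hepatocyte markers left 2 calls and a median of -0.32, beside a shift of all genes to 0.30. The mitochondrially encoded genes had 0 of 7 tested members called in limma, edgeR or DESeq2, 0 at an unadjusted p under 0.05, and a median of 0.04 (-0.26 without replicate 7). Their share of reads was 10.4%, 4.94% and 5.80% in replicates 7, 8b and 9a, against 5.40% to 7.04% at tumour day 4.

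Of 30 genes of amino acid catabolism 12 fell and 0 rose, and every log2 fold change was below 0 (median -0.72; -0.26 in PBS mice). Gnmt, which consumes excess S-adenosylmethionine, had 8521, 13808 and 15904 at tumour day 21, against 29874, 24841 and 27622 at tumour day 4 (limma log2 fold change -1.15 with SE 0.24 and adjusted p = 0.00836). Cth, which makes cysteine from cystathionine, had 1976, 3637 and 4562 at tumour day 21, against 7074, 10613 and 7790.3 at tumour day 4 (limma log2 fold change -1.39 with SE 0.30 and adjusted p = 0.0104). Gpt, alanine aminotransferase, had -0.83, with its call lost without tumour day 4 replicate 3, with values of -0.94 to -0.67 over the 12 leave-outs. All 12 were lowest in replicate 7, and 4 were called without it. Of the urea cycle and ammonia list 3 of 13 were called lower, where 4.75% of all genes were. Among genes with a mean of at least 500 in both tumour groups 10.04% were called lower. Otc, ornithine transcarbamylase, had 3670.3, 5301 and 6120.3 at tumour day 21, against 10746, 11630.0 and 10341 at tumour day 4 (limma log2 fold change -1.15 with SE 0.21 and adjusted p = 0.00491), and its call held without any 1 library. Ass1, argininosuccinate synthase, and Gls2, the liver glutaminase, had -0.85 and -1.19; the call of Ass1 was lost in 3 leave-outs, those of tumour day 21 (7) and tumour day 4 (1, 3), with values of -1.04 to -0.57 over the 12 leave-outs and that of Gls2 in 4 leave-outs, those of tumour day 21 (7) and tumour day 4 (1, 2, 3), with values of -1.41 to -0.85 over the 12 leave-outs. Cps1, which makes carbamoyl phosphate, had 33329, 60876 and 58556 at tumour day 21, against 70966, 90205 and 103725 at tumour day 4 without a call (limma adjusted p = 0.0946), and Arg1, arginase, had -0.40. The list median was -0.45 in tumour mice and -0.37 in PBS mice.

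Of the genes of glucose production, glycogen and glycolysis 8 of 22 were called lower and 0 higher, where 4.75% of all genes were called lower. The list median was -0.40 in tumour mice and -0.37 in PBS mice. Ugp2, which makes UDP-glucose for glycogen, had 3297, 4159 and 3669 at tumour day 21, against 7694, 7372 and 8780.0 at tumour day 4 (limma log2 fold change -1.10 with SE 0.16 and adjusted p = 0.00205). Pklr, liver pyruvate kinase, had 1666, 2207 and 2699.8 at tumour day 21, against 4962, 3949 and 5187 at tumour day 4 (limma log2 fold change -1.12 with SE 0.22 and adjusted p = 0.00649). G6pc, glucose-6-phosphatase, which was picked after its values were seen, had 2437, 4761 and 5799 at tumour day 21, against 17847, 12857 and 9661 at tumour day 4, a log2 fold change of -1.68. Its call was lost in 7 leave-outs, those of tumour day 21 (7, 8b), tumour day 4 (1, 2, 3), PBS day 21 (12b) and PBS day 4 (5), with values of -1.94 to -1.31 over the 12 leave-outs. The range of PBS mice was wider, with 6806, 30429 and 13899 at PBS day 21, against 29599, 18889.8 and 13669 at PBS day 4. Slc2a2, the liver glucose transporter, had -0.88, and its call was lost without tumour day 4 replicate 3, with values of -0.99 to -0.82 over the 12 leave-outs. Pck1 (-0.35) and Fbp1 (-0.26), both of gluconeogenesis, were not called. Without replicate 7, and likewise under hepatocyte marker scaling, 3 members were called.

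Genes of fatty acid oxidation and ketogenesis were called lower in 7 of 30 cases and higher in 1, with a median of -0.62, where 4.75% of all genes were called lower. The lower calls were 3 by edgeR, 15 by DESeq2, 2 under hepatocyte marker scaling, 1 without replicate 7, 2 without replicate 8b and 14 without replicate 9a. They were 1 and 2 without tumour day 4 replicates 1 and 3. Cyp4a10, a fatty acid hydroxylase and known PPARA target, had 132, 31.6 and 448 at tumour day 21, against 2249, 2702 and 1251 at tumour day 4 (limma log2 fold change -3.98 with SE 0.81 and adjusted p = 0.0101). PBS mice had 4648, 2868 and 7704 at PBS day 21, against 7083, 4309.6 and 2243 at PBS day 4, with a log2 fold change of 0.19. Acaa2, a thiolase, had a log2 fold change of -0.68, with its call lost in 3 leave-outs, those of tumour day 21 (7) and tumour day 4 (1, 3), with values of -0.80 to -0.56 over the 12 leave-outs. Cpt1a, which admits fatty acids to mitochondria, had -0.02, and Ppara 0.68, neither called. Of 20 lipogenic genes 1 was called lower, a share close to the 4.75% of all genes. It was Me1, which supplies NADPH for fat synthesis (-1.23), and its call was lost in 4 leave-outs, those of tumour day 21 (7, 8b) and tumour day 4 (1, 3), with values of -1.71 to -0.94 over the 12 leave-outs.

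Of 22 genes of bile acid synthesis and transport 5 were called lower and 0 higher, where 4.75% of all genes were called lower. The list median was -0.56 in tumour mice and -0.11 in PBS mice. Baat, which conjugates bile acids to amino acids, had 1649, 2647 and 2760.2 at tumour day 21, against 3991, 5147 and 4207 at tumour day 4 (limma log2 fold change -0.95 with SE 0.20 and adjusted p = 0.00983). Slco1a4, a basolateral uptake transporter, had 1119, 1345 and 1846 at tumour day 21, against 2540, 2722 and 3445 at tumour day 4 (limma log2 fold change -1.03 with SE 0.23 and adjusted p = 0.0109), with its call lost in 2 leave-outs, those of tumour day 21 (7) and tumour day 4 (3), with values of -1.23 to -0.87 over the 12 leave-outs. Slc27a5, the bile acid CoA ligase, had -0.87, with its call lost in 3 leave-outs, those of tumour day 21 (7) and tumour day 4 (1, 3), with values of -1.04 to -0.67 over the 12 leave-outs. Without replicate 7, 1 member was called. Cyp7a1, the rate-limiting enzyme, varied widely, with 2469, 4697 and 5167 at tumour day 21, against 9189.6, 1721 and 11715 at tumour day 4, and was not called. Lipc, hepatic lipase, had 1651, 1979 and 2746 at tumour day 21, against 4730.1, 4382 and 4760.3 at tumour day 4 (limma log2 fold change -1.15 with SE 0.17 and adjusted p = 0.00222). Of 19 genes of apolipoproteins and lipoprotein assembly 3 were called lower, Lipc among them, and 1 higher. The shares of all genes were 4.75% and 11.4%, and 10.04% were called lower among genes with a mean of at least 500 in both tumour groups. Without replicate 7 Lipc was the only member called.

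Of 22 genes of cholesterol synthesis 2 were called higher, a share below the 11.4% of all genes, with a median of 0.42. The count was 0 without tumour day 4 replicate 1 and 0 without replicate 3, 1 without replicate 9a, 7 without replicate 7 and 11 under hepatocyte marker scaling. Sqle, squalene epoxidase, had 1798, 3499 and 3143 at tumour day 21, against 809, 1493 and 1055 at tumour day 4 (limma log2 fold change 1.32 with SE 0.32 and adjusted p = 0.0175). Srebf2, which encodes the transcription factor of this pathway, had 1225, 1442 and 1560.2 at tumour day 21, against 928, 950.3 and 1029.5 at tumour day 4 (limma log2 fold change 0.53 with SE 0.14 and adjusted p = 0.0211). The call of Sqle was lost in 2 leave-outs, those of tumour day 4 (1, 3), with values of 1.11 to 1.61 over the 12 leave-outs and that of Srebf2 in 3 leave-outs, those of tumour day 21 (9a) and tumour day 4 (1, 3), with values of 0.46 to 0.63 over the 12 leave-outs.

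By zone of the liver lobule, 6 of 16 periportal genes were called lower, with a median of -0.82 in tumour mice and -0.46 in PBS mice (1 without replicate 7). Of 18 pericentral genes 2 were called lower and 1 higher, with a median of 0.17. The shares of all genes were 4.75% lower and 11.4% higher. Etnppl, a periportal phospho-lyase, had 269.8, 339 and 1167 at tumour day 21, against 2735, 3013 and 1971 at tumour day 4 (limma log2 fold change -2.41 with SE 0.55 and adjusted p = 0.015), and its call was lost without tumour day 21 replicate 7, with values of -3.06 to -2.01 over the 12 leave-outs. Slc13a3, a dicarboxylate transporter of the pericentral list, had 1844, 2787 and 1256 at tumour day 21, against 169, 320.5 and 216 at tumour day 4 (limma log2 fold change 3.03 with SE 0.40 and adjusted p = 0.00188). Its groups lay far apart, and PBS mice had 292, 101 and 212 at PBS day 21, against 178, 222 and 133 at PBS day 4. The pericentral genes called lower were Cyp2c29, described above, and Cyp1a2 (-0.87), whose call was lost in 7 leave-outs, those of tumour day 21 (7, 8b), tumour day 4 (1, 3), PBS day 21 (11a, 12b) and PBS day 4 (4), with values of -1.09 to -0.58 over the 12 leave-outs. Glutamine synthetase Glul (0.39) and Axin2 (0.21), a Wnt target, were not called.

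Hnf4a (GRCm38 chromosome 2, 163506808 to 163572910, plus strand) had 8304, 10971 and 11284 at tumour day 21, against 10658, 11957 and 13388 at tumour day 4. The groups overlapped, and replicate 7 held the lowest value of the 6. The means were 10186 ± 1638 at tumour day 21 and 12001 ± 1365 at tumour day 4 (SD, n = 3), with a log2 fold change of -0.24 (95% interval -0.62 to 0.14; limma adjusted p = 0.392). Without replicate 7 the value was -0.10, and under hepatocyte marker scaling it turned to 0.05. In PBS mice it was -0.03. A log2 fold change of -1 lies outside this interval; protein was not measured. Of 20 tested factors of the hepatocyte network, Hnf4a among them, 0 passed in limma, edgeR or DESeq2, with 1 at an unadjusted p under 0.05 and a list median of -0.09. Under hepatocyte marker scaling 1 was called, the fatty acid receptor Ppara, with a log2 fold change of 0.97 (limma adjusted p = 0.0117). Its normalized counts were 1931, 1927 and 2238 at tumour day 21, against 1191, 1180.0 and 1438 at tumour day 4, without overlap, and its log2 fold change as scaled by the authors was 0.68 (limma adjusted p = 0.108). Without tumour day 4 replicate 2, 1 factor was called lower, the orphan receptor Esrra, which was picked after its values were seen. Cebpa had -0.31, Nr1h4, the bile acid receptor FXR, -0.39 and Foxa2 -0.09. The constitutive plasma proteins were called lower in 2 of 22 cases, where 4.75% of all genes were. Among genes with a mean of at least 500 in both tumour groups the share was 10.04%, so the list did not stand above such genes. Its median of -0.27 became 0.02 under hepatocyte marker scaling. None of its members was called lower under that scaling, without replicate 7, or without any 1 of the tumour day 4 libraries. The 2 called were Serpina1e, an antitrypsin, and Apoh, a phospholipid-binding protein, with -0.68 and -0.66. The call of Serpina1e was lost in 4 leave-outs, those of tumour day 21 (7) and tumour day 4 (1, 2, 3), with values of -0.79 to -0.49 over the 12 leave-outs, and that of Apoh in 7 leave-outs, those of tumour day 21 (7), tumour day 4 (1, 2, 3) and PBS day 21 (10a, 11a, 12b), with values of -0.73 to -0.51 over the 12 leave-outs.

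Chemokines and adhesion molecules were called higher in 6 of 11 tested cases and lower in 1, with a median of 2.33 (2 and 1 without replicate 7). The shares of all genes were 11.4% higher and 4.75% lower. A mean of at least 10 in both tumour groups was reached by 9 members, of which 5 were called higher and 1 lower. Icam1, an adhesion receptor for leukocytes, had 369.9, 472 and 245 at tumour day 21, against 122, 144 and 115 at tumour day 4 (limma log2 fold change 1.46 with SE 0.28 and adjusted p = 0.0063). Selp, P-selectin of platelets and endothelium, had 211, 49.9 and 44.3 at tumour day 21, against 9.15, 4.91 and 9.36 at tumour day 4. Vcam1, another endothelial adhesion receptor, had 1220.5, 196 and 466 at tumour day 21, against 114, 82.3 and 19.9 at tumour day 4, and its call was lost in 2 leave-outs, those of tumour day 21 (7) and tumour day 4 (3), with values of 2.30 to 3.69 over the 12 leave-outs. Selp and Vcam1 were highest in replicate 7, as were the endothelial markers, whose part here was not tested. Ccl9 was the member called lower (-0.83). Hmox1, haem oxygenase, had 954, 279 and 401 at tumour day 21, against 101, 136 and 46.8 at tumour day 4 (limma log2 fold change 2.44 with SE 0.49 and adjusted p = 0.0087), and Hamp2, a hepcidin, 813, 484 and 1999 at tumour day 21, against 3152, 2113 and 8516 at tumour day 4. The call of Hamp2 was lost in 8 leave-outs, those of tumour day 21 (7, 8b), tumour day 4 (1, 3), PBS day 21 (12b) and PBS day 4 (4, 5, 6), with values of -2.61 to -1.48 over the 12 leave-outs. Gas6, a ligand of the TAM receptor kinases, had 2361, 3111 and 3878 at tumour day 21, against 1202, 997 and 1088 at tumour day 4 (limma log2 fold change 1.48 with SE 0.26 and adjusted p = 0.004), and it kept its call when any 1 library was left out.

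In the ATF4 and integrated stress list 4 of 15 were called higher and 1 lower, with a median of 0.07. A mean of at least 10 in both tumour groups was reached by 12 members, of which 1 was called higher and 1 lower. Past this limit 7.61% of genes were called higher and 5% lower. Chac1, which degrades glutathione, had 290.0, 339 and 232 at tumour day 21, against 67.1, 46.7 and 73.7 at tumour day 4 (limma log2 fold change 2.19 with SE 0.39 and adjusted p = 0.00462). Trib3, a pseudokinase and another ATF4 target, had 30.7, 28.3 and 23.7 at tumour day 21, against 76.3, 70.0 and 106 at tumour day 4 (limma log2 fold change -1.56 with SE 0.31 and adjusted p = 0.00753). The 2 genes thus moved in opposite directions, without overlap between the days. Phgdh and Psat1 of serine synthesis and Asns, asparagine synthetase, were called higher from low counts, and the call of Psat1 was lost in 2 leave-outs, those of tumour day 21 (7) and tumour day 4 (3), with values of 1.79 to 3.04 over the 12 leave-outs. Asns had 124, 26.6 and 22.1 at tumour day 21, against 2.03, 6.14 and 1.17 at tumour day 4, highest in replicate 7. Phgdh had 83, 15 and 16 recovered reads in replicates 7, 8b and 9a at tumour day 21, against 2 over tumour day 4, a depth-adjusted ratio of 54 (95% counting interval 14.6 to 452). Without replicate 7 the ratio was 23.2 (5.89 to 200). Klf6, an immediate-early transcription factor, had 503, 219 and 228 at tumour day 21, against 60.0, 78.6 and 71.4 at tumour day 4 (limma log2 fold change 2.06 with SE 0.28 and adjusted p = 0.00172), and Klf4 and Ier3 were the other 2 of 18 immediate-early genes called higher, where 11.4% of all genes were. Of the 16 with a mean of at least 10 in both tumour groups 1 was called. Krt23, a keratin of bile duct cells, had 0.81, 0 and 5.34 at tumour day 21, against 41.7, 19.6 and 43.3 at tumour day 4 (limma log2 fold change -3.91 with SE 0.60 and adjusted p = 0.00224), and it kept its call when any 1 library was left out. Its mean at tumour day 21 was under 10, so it was tested only because it was high at day 4. The other cholangiocyte markers did not fall with it. The list had 3 tested members, 1 called lower (Krt23) and 1 higher (2.43), with a median of 0.66. The higher call was lost by edgeR, without any 1 of the tumour day 21 libraries, and without tumour day 4 replicate 1 or 3.

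Several lists held no called gene in limma. Interferon response and antigen presentation had 0 of 30 (5 at an unadjusted p under 0.05; 1 by edgeR and 2 by DESeq2) and a median of 0.06. Endoplasmic reticulum chaperones had 0 of 22 (1 unadjusted; 0 by edgeR and 1 by DESeq2), and cytosolic heat shock proteins 0 of 15 (3 unadjusted; 0 by edgeR and 2 by DESeq2, 1 each way). The circadian clock had 0 of 19, cytosolic ribosomal proteins 0 of 48 and ribosome biogenesis 0 of 25, with 0 by edgeR or DESeq2 and 0 at an unadjusted p under 0.05 in each. Ribosomal proteins spanned only -0.31 to 0.21, with a median of 0.03. Ifit2, an interferon-induced protein, had 174, 39.9 and 84.0 at tumour day 21, against 32.5, 36.8 and 11.7 at tumour day 4 (limma adjusted p = 0.0558), and Per1, a clock gene, 1094, 1084 and 884 at tumour day 21, against 778, 568 and 953 at tumour day 4.

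The difference between the time effects was sought gene by gene, because a call in tumour mice beside none in PBS mice does not show a difference. Of the 104 genes called higher in that test, 60 had a mean under 10 at tumour day 4 and 20 were in the neutrophil, progenitor or monocyte lists. Ngp had the largest difference, 11.50 (95% interval 8.55 to 14.45; limma adjusted p = 0.0145), with 23016, 3932 and 3559 at tumour day 21, against 7.12, 46.7 and 2.34 at tumour day 4. PBS mice had 2.62, 2.1 and 0 at PBS day 21, against 6.71, 9.02 and 13.2 at PBS day 4. Of the 104, 25 had a mean of at least 50 in all 4 groups, among them Isyna1, Dnajc12 and Mt2, which were picked after their values were seen. Isyna1, the synthase of inositol phosphate, had 503, 805 and 375 at tumour day 21, against 114, 62.6 and 52.6 at tumour day 4, and in PBS mice 59.3, 51.1 and 44.5 at PBS day 21, against 57.7, 74.4 and 53.5 at PBS day 4. Its difference was 3.12 (95% interval 2.16 to 4.08; limma adjusted p = 0.0222).

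Of the 104, 103 were also called higher in tumour mice. The other was Mt2, a metallothionein that binds zinc and copper and a member of the acute-phase list. It had 2358, 5607 and 4126 at tumour day 21, against 2965, 1142 and 1076 at tumour day 4, which overlapped, and 289, 213 and 153 at PBS day 21, against 1293, 2735 and 1156 at PBS day 4, which did not. The log2 fold change was 1.30 in tumour mice and -2.91 in PBS mice, neither called, and the difference was 4.21 (95% interval 2.77 to 5.65; limma adjusted p = 0.0252). Of the 6 genes lower in the test of the difference, 3 were measured at a mean of at least 50 in all groups. Retsat, retinol saturase (GRCm38 chromosome 6, 72598475 to 72608425, plus strand), had 670.4, 653 and 1551 at tumour day 21, against 5369.9, 5189 and 3684 at tumour day 4 and in PBS mice 3539, 3962 and 4041 at PBS day 21, against 5916, 4198 and 4161 at PBS day 4. Its difference was -2.12 (95% interval -3.02 to -1.22; limma adjusted p = 0.0437). Gstt3, a glutathione transferase, and Lipc had differences of -2.11 and -1.33 (limma adjusted p = 0.0414 and 0.0381), each with 3 of 3 tumour day 21 mice below all other libraries. The calls of the difference were not stable. None of the 110 genes kept its call through each of the 12 leave-outs, the most being 9, and the count was 0 in both directions without PBS day 21 replicates 11a or 12b or PBS day 4 replicate 5. EdgeR called 0 and DESeq2 419 higher and 71 lower, 80 of the 104 among them, with 1777 genes at an unadjusted p under 0.05 in limma.

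**Figure D5:**
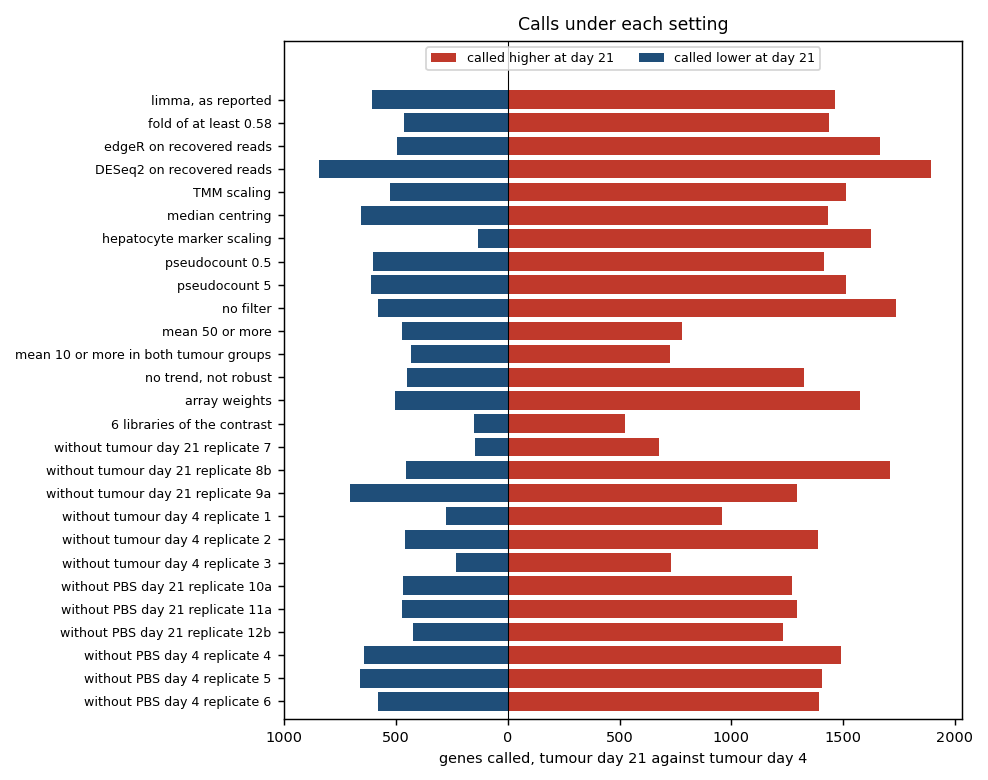
Bars give the number of genes called higher (right) and lower (left) at tumour day 21 against tumour day 4 under each setting. The calls as reported are 1463 and 608; leaving out tumour day 21 replicate 7 gives 676 and 146, and fitting only the 6 tumour libraries 525 and 152.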

How the data were processed

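PolyA RNA of hepatocytes from 12 mice, 3 a group, was sequenced. Per the submitters' processing notes the tools were cutadapt, STAR 2.4.2a, HTSeq and DESeq2, with the build GRCm38; which annotation was counted, and whether by strand, is not given in the sources used here, so antisense and overlapping genes cannot be told apart. The deposited values are normalized counts (a signal), which the authors made by dividing counts per gene by a size factor for each library. Whole reads were recovered from the steps of the low values, and at least 99.9937% of values in every library came out whole within a tolerance of 0.1. Depth and read shares rest on these reads, and intervals and limits on counts cover counting error only.

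Genes with a mean of at least 10 over the 6 tumour libraries were tested with limma 3.58.1 (R 4.3.3) on log2(normalized count + 1), with 1 mean per group over all 12 libraries, a mean-variance trend and robust moderation. The contrasts were day 21 minus day 4 in tumour mice, the same in PBS mice, and their difference. All tests were two-sided, with Benjamini-Hochberg adjustment over 12791 genes and a call at an adjusted p under 0.05. A fold change on this scale understates the change of low genes. EdgeR 4.0.16 and DESeq2 1.42.0 were run on the recovered reads as alternatives, beside other scalings, pseudocounts, filters, array weights and leaving out each library. Of the IDs, 15892 matched GENCODE M21, from which coordinates come, and 9754 tested genes had a RefSeq promoter.

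The genes named were Hnf4a; the 8 largest rises and falls among called genes without overlap with a mean of at least 50, and the same with means of at least 500 in both groups; up to 4 called members of each list by p, or 2 where none was called; and the 5 largest differences of the time effects each way. A description covers part of them, and a few genes are not reported here. List members given as not called, and Ccr2, Ly6c2, Socs3, Lifr, G6pc, Gfi1, Cebpe, Mt2, Isyna1 and Dnajc12, were picked outside this rule after their values were seen. The members and the gene lists were chosen with earlier results of these data known, so counts over lists describe and give no independent support.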

Additional observations from a re-analysis of the deposited data

Results flagged for a closer look

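The change between the days differed between tumour and PBS mice, by the limma contrast of the time effects, in 104 genes with a higher and 6 with a lower value in tumour mice. The values below are that difference, tumour minus PBS, on the log2 scale. Among genes of neutrophils, their precursors and monocytes it was 11.50 for Ngp, 10.13 for Mpo, 9.93 for S100a8, 9.88 for Ltf, 9.34 for S100a9 and 8.89 for Ctsg. It was 8.73 for Cd177, 8.55 for Camp, 8.52 for Elane, 7.58 for Cebpe, 7.52 for F13a1, 7.47 for Chil3, 7.45 for Ms4a3 and 6.70 for Gfi1. Nkg7 of cytotoxic cells had 6.64, and Rrm2, the ribonucleotide reductase subunit, 4.15. Many of these had few reads in 3 of the 4 groups, and the fitted difference of such genes depends on the pseudocount.

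Among genes measured in all groups, Mt2 had 4.21, Isyna1 3.12, Slc13a3 2.95 and Dnajc12, a co-chaperone, 2.57. Chac1 had 3.25, with 290.0, 339 and 232 at tumour day 21, against 67.1, 46.7 and 73.7 at tumour day 4, and 72.4, 76.4 and 33.6 at PBS day 21, against 109, 216 and 73.6 at PBS day 4. The genes with a lower value were Retsat (-2.12), Gstt3 (-2.11) and Lipc (-1.33), together with Srgap3 and the gene models Mup-ps4 and Gm12494, which had under 50 normalized counts in at least 1 group. None of these calls held through every leave-out of 1 library.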

How the results depend on the processing

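Over the settings tried, single genes other than Hnf4a kept their direction and side of the threshold in 2298 cases, lost the call in 185, gained one in 14 and turned direction in 1. The calls higher in tumour mice were 779 with a mean of at least 50, 724 with a mean of at least 10 in both tumour groups, 525 with the 6 tumour libraries alone and 676 to 1709 when each library was left out. The calls lower were 134 under hepatocyte marker scaling, 152 with the 6 libraries alone and 146 to 706 over the leave-outs. In PBS mice DESeq2 called 5 lower, and the leave-outs gave 0 to 2 higher and 0 to 13 lower, the highest without PBS day 4 replicate 6. For the difference of the time effects, higher and lower calls were 0 and 0 by edgeR, 419 and 71 by DESeq2, 35 and 3 under hepatocyte marker scaling, 41 and 2 at a pseudocount of 0.5, 1 and 0 with a mean of at least 50, 1 and 0 with a mean of at least 10 in both tumour groups, and 254 and 14 with array weights. Without a filter 158 were higher, and the leave-outs gave 0 to 169 higher and 0 to 55 lower. Hnf4a turned to 0.0466 under hepatocyte marker scaling and ran from -0.33 to -0.10 over the leave-outs. The mitochondrial gene mt-Nd5 turned to -0.0104 without tumour day 21 replicate 7, in a range of -0.0104 to 0.4391. The cause of these shifts was not tested, beyond fewer genes or libraries entering the fit where a setting removes them. No paired analysis was possible because the groups compared share no replicate numbers.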

Other observations

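Some members of the lists that the account above does not describe rose or fell as well. Vnn1, pantetheinase and a known PPARA target, was the member of the fatty acid oxidation list called higher, with 603, 336 and 452 at tumour day 21, against 263, 223 and 143 at tumour day 4 (limma log2 fold change 1.14 with SE 0.34 and adjusted p = 0.0379). Its call was lost in 4 leave-outs, those of tumour day 21 (7, 9a) and tumour day 4 (2, 3), with values of 0.89 to 1.36 over the 12 leave-outs. Its direction was opposite to that of Cyp4a10. Lrg1, a secreted leucine-rich glycoprotein, had 17890.3, 30772 and 16106 at tumour day 21, against 11963, 8633 and 5826 at tumour day 4 (limma log2 fold change 1.29 with SE 0.31 and adjusted p = 0.0165), with its call lost without tumour day 4 replicate 3, with values of 1.01 to 1.55 over the 12 leave-outs. Ugt1a9, a glucuronosyltransferase, had 71.9, 145 and 479 at tumour day 21, against 1281, 1758 and 930.1 at tumour day 4 (limma log2 fold change -2.90 with SE 0.60 and adjusted p = 0.0107). Sod2, the mitochondrial superoxide dismutase, had 1576, 1891 and 2236 at tumour day 21, against 3049.6, 2742 and 2893 at tumour day 4 (limma log2 fold change -0.62 with SE 0.17 and adjusted p = 0.0296). The call of Sod2 was lost in 4 leave-outs, those of tumour day 21 (7, 8b) and tumour day 4 (1, 3), with values of -0.74 to -0.49 over the 12 leave-outs. Vnn1, Lrg1 and Ugt1a9 were picked after their values were seen.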
